A study of Mus musculus with 123 samples.

Results

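The genes described here are 8 genes of MHC class I antigen presentation, chosen by symbol from the 24134 genes of the table: B2m, H2-D1, H2-K1, Tap1, Tap2, Tapbp, Psmb8 and Psmb9. Class I molecules carry peptides from the inside of a cell to its surface, where T cells and natural killer cells read them. A class I molecule is a heavy chain (H2-D1 and H2-K1 are the classical ones of the mouse) paired with the invariant light chain beta-2 microglobulin, encoded by B2m. Peptides are cut by the proteasome, whose inducible catalytic subunits include Psmb8 and Psmb9, are pumped into the endoplasmic reticulum by the transporter made of Tap1 and Tap2, and are loaded with the help of tapasin, encoded by Tapbp. Neurons are textbook examples of cells that hold little class I at rest, and interferons are well known inducers of the genes of this pathway.

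The libraries came from sensory neurons of the dorsal root ganglion (DRG), picked by hand after sciatic nerve transection (SNT) on the right side of 2-month-old mice, with the other side of the same mice as control. The mice were operated under ketamine and xylazine, no transgene is named, and both sides shared the animals, dissociation and picking. At day 3 the mice were female F1 animals of a CAST/Eij male and a C57BL/6 female, and 18 control-side and 41 SNT-side cells were kept, with 4 and 7 further cells left out as outliers. At day 7 the mice were C57BL/6 of both sexes, with 14 control-side and 33 SNT-side cells. The names of these cells give day 7, while their protocol text mentions both 3 and 7 days. Pooled neurons of each side at day 3, from the F1 cross, were lysed together and divided over 3 libraries, so these 3 libraries per side measure technical spread within 1 pool and not the spread between animals. The days differ in strain, sex, read length and read layout as well as in time, and these cannot be told apart. No label names an animal for a cell, so the cells of one side and day were treated as 1 sample, and comparisons between cells are given without a p-value.

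Total counts were 563462 to 839135 in the control pools and 1148849 to 2003817 in the SNT pools. In the kept cells they were 277390 to 1368842 (control, day 3), 611647 to 1849130 (SNT, day 3), 510014 to 1018545 (control, day 7) and 261351 to 965292 (SNT, day 7). Levels are given in CPM, the estimated counts of a gene divided by those of its library and scaled to 1000000. One pooled label conflicts with another: the names of the 6 pooled libraries give the side used here, while the identifier line above them pairs all 6 the other way. The source label of all 6 says intact, and the labels and the study's methods give different numbers of neurons per pool. Atf3, an injury-induced transcription factor, was at 1372, 1409 and 1619 CPM in the 3 libraries named for the SNT side and at 8.25, 21.5 and 10.6 CPM in the 3 named for the control side. Under the identifier line every pooled sign below would turn. Among the cells, Atf3 was above its highest control cell in 30 of 41 SNT-side cells at day 3 and in 12 of 33 at day 7, so the SNT side holds cells both above and within the control range of this injury gene.

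Sensory neuron markers (9 genes: Tubb3, Snap25, Rbfox3, Uchl1, Isl1, Prph, Nefl, Nefm and Avil) summed to at least 9971 CPM in every kept cell, and all 9 averaged at least 1 CPM in every group. Class II markers averaged 20.5 to 42.5 CPM per group as a sum over 7 genes, led by H2-DMa in all 6 groups. The T and NK cell markers averaged at most 2.88 CPM in any group, Cd3e and Cd3g were at 0 in all 6 groups, and the 14 macrophage markers summed to a median per cell of 2.80 (control) and 16.9 (SNT) CPM at day 3 and of 1.35 and 5.22 CPM at day 7, higher on the SNT side. Satellite glial transcripts were abundant in the neuronal libraries and led by Apoe, with a median summed level of 1609, 3195, 4729 and 1164 CPM in the control and SNT cells of day 3 and the control and SNT cells of day 7. The means were 3974, 3768, 4912 and 3354 CPM in the same order. At day 3 the SNT side was thus higher by medians and lower by means.

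Of the 8 genes, 7 lie on mouse chromosome 17, in the major histocompatibility complex, and B2m lies on chromosome 2 (positions 122147687 to 122153082 in GRCm38.p6). Tapbp (33919478 to 33929290) and H2-K1 (33996012 to 34000619) are followed on chromosome 17 by Psmb9 (34182030 to 34187330), Tap1 (34187556 to 34197225), Psmb8 (34198195 to 34201454) and Tap2 (34204479 to 34216321), and H2-D1 (35263094 to 35267497) stands farther along. These positions come from RefSeq on GRCm38.p6 and serve to place the genes, since the counts were made on mm9. Tap1 and Psmb9 are read in opposite directions from neighbouring starts, and their exons overlap in GENCODE M21. Exons of Tap2 (with Gm15821 and Gm20496), Psmb8 (with Gm20496) and Tapbp (with Gm19412) also overlap genes of the opposite strand. Those genes are not among the genes counted. No use of strand is stated for the counting, so reads in any of these overlaps cannot be assigned. H2-D1 and H2-K1 are near-copies of each other and of other class I genes, and the estimated counts divide shared reads among them.

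Promoters of 7 of the 8 genes were read from the RefSeq promoter set (GRCm38.p6). Each window ran from 250 bases before a start listed in that set to 50 bases after it. Searches were made on both strands for 3 motifs: the interferon regulatory factor sequence AANNGAAA, a kappaB-like sequence GGGANNNNCC and a gamma-activated-site-like sequence TTCNNNGAA. The windows with matches are shown because H2-D1, H2-K1 and B2m carry the same pair of motifs within 29 bases. Letters of a matching motif are in capitals, the kappaB-like capitals join matches on both strands, and each line is read 5′ to 3′ on the strand of the gene.
H2-D1: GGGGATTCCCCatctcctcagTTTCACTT
H2-K1: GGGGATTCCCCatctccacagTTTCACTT
B2m: atgaAACTGAAAatGGGAAAGTCCCtttg
Psmb8: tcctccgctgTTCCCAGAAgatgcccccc
The H2-D1 window covers chr17:35262923-35262951 (plus strand) and the H2-K1 window chr17:34000430-34000458 (minus strand). The H2-K1 window lies 111 to 83 bases before a start listed in the promoter set. That start and the window both lie inside the H2-K1 gene span of 33996012 to 34000619. Over 29 bases the H2-D1 and H2-K1 windows differ at 1. Over the best ungapped overlap of their whole promoters, 176 of 240 bases (73.3%) were identical. The B2m window covers chr2:122147546-122147574 (plus strand), with both motifs in the reverse order, and the Psmb8 window covers chr17:34198088-34198116 (plus strand) and holds the gamma-activated-site-like match. Of 32851 promoters in the set, 23.9% hold AANNGAAA, 20.7% hold GGGANNNNCC, 8.30% hold TTCNNNGAA and 3.705% hold both of the first pair. The windows of Tap1, Psmb9 and Tapbp hold none of these motifs. The sequences are those of C57BL/6J, and a match in them is a description, not a shown site.

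Levels differed widely among the 8 genes. Per kilobase of the longest RefSeq-linked transcript, H2-D1 was at the top of the control cells of day 3 with 97.5 CPM per kb, followed by B2m (68.5), H2-K1 (37.1), Tapbp (32.1), Psmb8 (7.3), Tap2 (3.52), Psmb9 (2.97) and Tap1 (1.32). In the control cells of day 7 the order began with B2m at 205 CPM per kb and H2-D1 at 105 CPM per kb. Psmb8, Tap2, Tap1 and Psmb9 were the 4 lowest in all 6 groups on this scale, with Psmb8 the highest of these 4. The transporter and the inducible proteasome subunits were thus the thinnest measured, and Tap1 and Psmb9 were at 0 in 4 of 18 control cells of day 3.

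**Figure D1:**
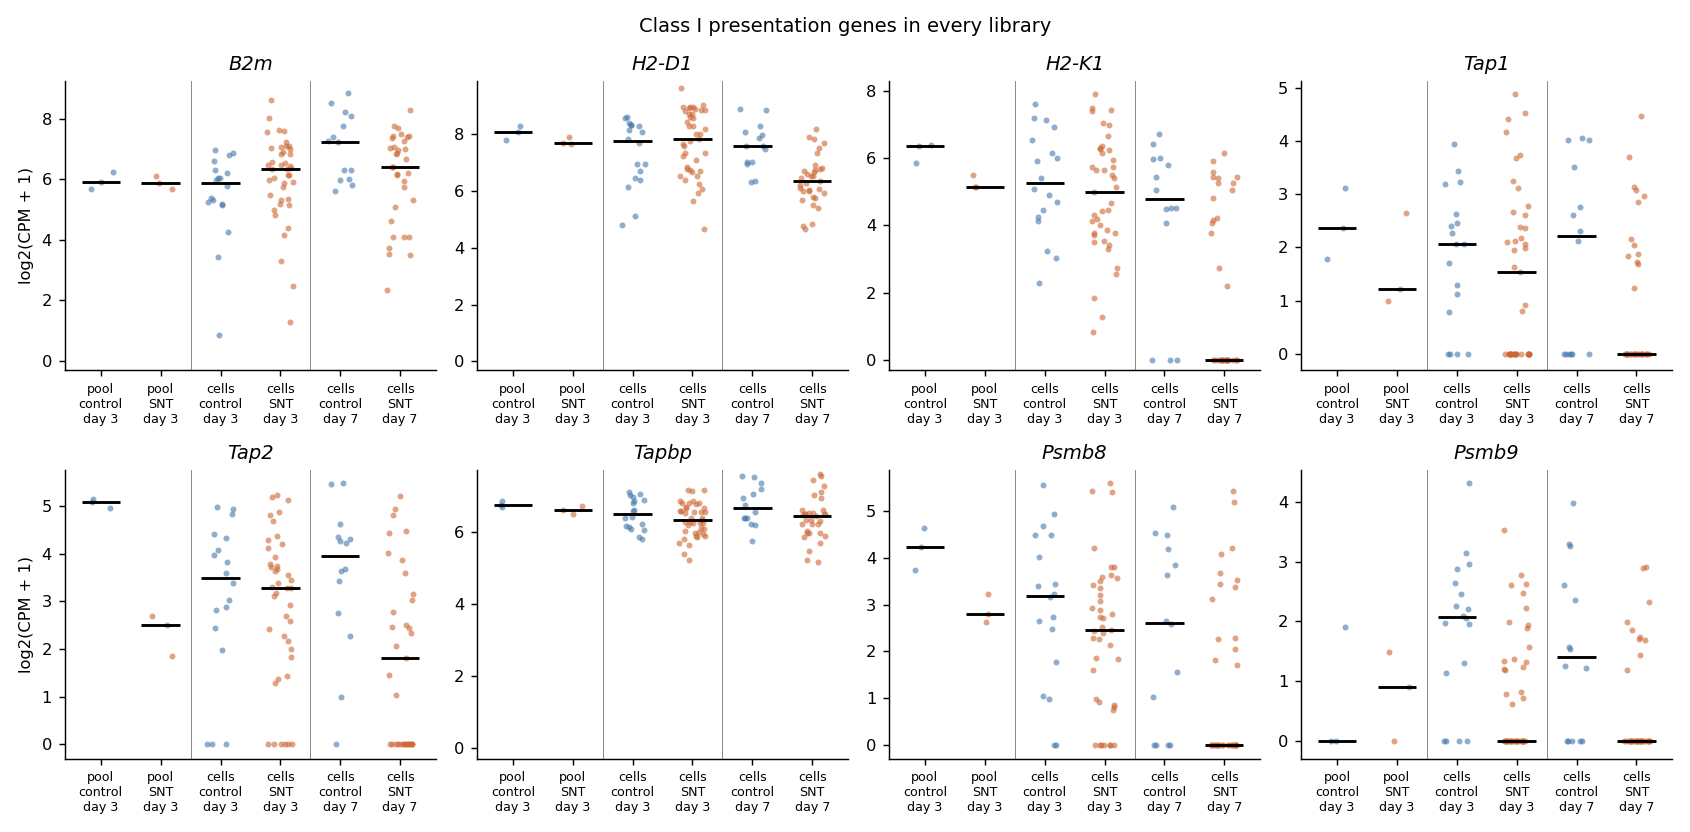
Each point is a library, plotted as log2(CPM + 1) on a vertical axis that differs between genes; blue marks the control side, orange the SNT side, and the black line the group median. B2m, H2-D1 and Tapbp were above 0 in every library shown, while the median of H2-K1, Tap1, Psmb8 and Psmb9 was 0 in SNT-side cells at day 7.

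The first comparison asked how the genes differed between the pools of the 2 sides at day 3. Tap2 fell on the SNT side, and it alone of the 8 genes passed both limits of the test (adjusted p below 0.05 and a change over 2-fold). H2-K1 was past the adjusted p of 0.05 while its change stayed under 2-fold, Psmb8 narrowly missed that p, and no difference was detected for the other measured genes. In pooled material, fewer cells of a type and less RNA per cell cannot be told apart.

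Tap2, a subunit of the peptide transporter, was at 30.3, 34.6 and 33.7 CPM in the control libraries and at 4.78, 2.61 and 5.49 CPM in the SNT libraries. All 3 SNT libraries were far below all 3 control libraries. Its mean went from 32.8 ± 2.28 to 4.29 ± 1.5 CPM (SD over 3 libraries). On the log2 scale this was -2.69 with an SE of 0.44, and the adjusted p was 8.2e-06 (quasi-likelihood test of edgeR, Benjamini-Hochberg over 13509 genes). Of all genes tested, 7.114% passed both limits downward and 8.853% upward (961 and 1196 genes, or 1264 and 980 when libraries were scaled by size alone). Among the 7 presentation genes tested, 1 passed downward and 0 upward, and 1 of 7 is to be read against that background. At an unadjusted p below 0.05, 3 of the 7 were lower (Tap2, H2-K1 and Psmb8) and 0 were higher, also by DESeq2 and by limma, where 15.8% of all genes were lower and 19.31% higher at that p by edgeR. DESeq2 passed 1 of the 7 downward on both limits and limma 2 (Tap2 and Psmb8).

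H2-K1, a classical heavy chain, was at 56.4, 83.4 and 81.6 CPM in the control libraries and at 34.1, 34.8 and 43.9 CPM in the SNT libraries. The sides did not overlap, as for Tap2 and Psmb8. The share of all genes whose libraries did not overlap is not given, so for these genes it is a description only. The log2 change was -0.80 with an SE of 0.25, and the adjusted p of 0.014 by edgeR was past the limit (0.076 and 0.061 without SNT library 1 or 2, and 0.065 and 0.058 without control library 2 or 3), which 10.79% of all genes passed downward. H2-D1, the other classical heavy chain, was at 220.0, 309.9 and 272 CPM on the control side and 199, 205 and 236 CPM on the SNT side, and these ranges overlapped. Its log2 change was -0.17 (SE 0.16, adjusted p = 0.49 by edgeR). The heavy chains H2-D1, H2-K1, H2-L and the H2-Q genes taken as 1 sum, which does not depend on how reads were divided among them, stood at 371 ± 61.8 CPM in the control libraries and 288 ± 20.8 CPM in the SNT libraries (SD, n = 3 libraries of 1 pool).

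Psmb8, an inducible proteasome subunit, was at 12.4, 23.8 and 17.7 CPM in the control libraries and at 8.37, 5.22 and 5.99 CPM in the SNT libraries. Every SNT library was below every control library, but the highest SNT library and the lowest control library stood close together. The log2 change of -1.29 (SE 0.49) had an adjusted p of 0.051 by edgeR, and 6 of 15 alternative settings brought it below 0.05. B2m, the light chain, was at 59.1, 73.9 and 49.7 CPM against 58.0, 50.5 and 67.9 CPM, with a log2 change of 0.10 (SE 0.24). Tapbp had a log2 change of -0.01 (SE 0.19), with 116, 106 and 101 CPM on the control side and 95.7, 104 and 88.8 CPM on the SNT side. Both overlapped between the sides, and the signs of their log2 changes turned under other settings.

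Tap1, the partner of Tap2 in the transporter, rested on 2 to 6 counts per library. It was at 4.13, 2.38 and 7.1 CPM on the control side and 1.20, 5.22 and 0.998 CPM on the SNT side, and its log2 change of -0.77 had an SE of 0.97 and was -1.74 without SNT library 2. Psmb9 rested on at most 3 counts in a library, was at 0 in 3 of the 6, and was left out by the filter of 1 CPM. For these genes a difference was not detectable at this depth.

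Satellite glial markers moved with the sides of the pools. Their summed level was 11150.2, 13866 and 13037 CPM in the control libraries and 4881, 5642 and 5334 CPM in the SNT libraries, led by Apoe at 10677 and 3875 CPM on average. By edgeR 4 of these 10 markers fell past both limits, among them Fabp7, Kcnj10 and Apoe, and 1 rose. Macrophage markers summed to 1.64, 7.2 and 0 CPM in the control libraries and to 18.1, 14.8 and 21.8 CPM in the SNT libraries, with Ptprc, Itgam, C1qc and Tyrobp at 0 in all 6, and 3 of the 4 tested (Csf1r, Cx3cr1 and Cd14) rose by edgeR. Endothelial markers summed to 29.6 CPM on average in the control libraries and 74.2 CPM in the SNT libraries, led by Egfl7, and 3 of the 5 tested rose. Fibroblast markers summed to 72.1 and 42.1 CPM, with 1 of the 5 tested (Col1a2) lower. Among the neutrophil markers Cxcr2 rose, from 10.8 to 36.3 CPM. By DESeq2, 1 macrophage, 1 endothelial and 0 fibroblast markers passed both limits. The part of glial, immune, endothelial or fibroblast transcripts in the pooled class I values was not tested.

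The second comparison set the cells of day 3 side by side. B2m and H2-D1 were higher on average on the SNT side, Tap1, Tap2, Tapbp and H2-K1 had log2 ratios between -0.20 and 0.12, and Psmb8 and Psmb9 were lower. Of the 8 genes, 0 were higher and 1 (Psmb9) was lower past 2-fold, where 7.121% and 6.075% of 13663 genes were. The log2 ratio of Psmb9 ran from -1.22 to -0.79 on leaving out each cell in turn. With a pseudocount of 10 it was -0.30, under 2-fold. No test was made, since the cells of each side were treated as 1 sample. These are differences between cells and carry counting and cell-to-cell spread only.

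B2m had a lowest, median and highest level of 0.789, 57.8 and 125.0 CPM in 18 control cells and of 1.46, 80.6 and 390.4 CPM in 41 SNT cells. The ranges overlapped, and 11 of 41 SNT cells lay above every control cell. The mean was 58.9 ± 36.1 CPM on the control side and 92.9 ± 74.7 CPM on the SNT side (SD over cells), a log2 ratio of mean CPM + 1 of 0.65. H2-D1 was at 27.1, 216 and 389 CPM in control cells and at 24.3, 227 and 787 CPM in SNT cells. For H2-D1, 13 of 41 SNT cells lay above every control cell while the medians stood close together, and the log2 ratio of the means was 0.39. The medians alone gave 0.47 for B2m and 0.07 for H2-D1. Macrophage, neutrophil and T and NK cell markers taken as 1 sum (without Cxcr2) had rho of 0.33 with B2m and 0.25 with H2-D1 in the SNT cells of day 3, and their part in the difference was not tested.

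H2-K1 was at 3.82, 37.02 and 194 CPM in control cells and at 0.772, 30.7 and 236 CPM in SNT cells, a log2 ratio of -0.20. It was above 0 in all 59 cells of day 3. Tap2 was at 0, 10.3 and 30.3 CPM in control cells and at 0, 8.74 and 36.6 CPM in SNT cells. Its log2 ratio in the cells was -0.15, beside the log2 change of -2.69 in the pools of the same day and side. The pooled control level of Tap2, 32.8 CPM on average, was above the highest of the 18 control cells, and the pooled SNT level of 4.29 CPM was below the median of the SNT cells. Tapbp was at 54.1, 89.1 and 137 CPM in control cells and at 36.2, 79.5 and 143 CPM in SNT cells, the narrowest spread of the 8 genes relative to its mean.

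Psmb8 averaged 11.9 ± 12.5 CPM in control cells and 7.897 ± 11.2 CPM in SNT cells (SD over 18 and 41 cells), a log2 ratio of -0.54. Psmb9 averaged 4.01 ± 4.47 and 1.38 ± 2.22 CPM, a log2 ratio of -1.07, and was above 0 in 14 of 18 control cells and 20 of 41 SNT cells. After every cell was thinned to 200000 counts, Psmb9 was seen in 9 of 18 control cells (50.0%, exact binomial 95% interval 26.02 to 73.98) and in 4 of 41 SNT cells (9.76%, interval 2.72 to 23.1). These intervals cover counting of cells only. Tap1 averaged 3.91 ± 4.00 CPM in control cells and 4.33 ± 6.78 CPM in SNT cells.

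**Figure D2:**
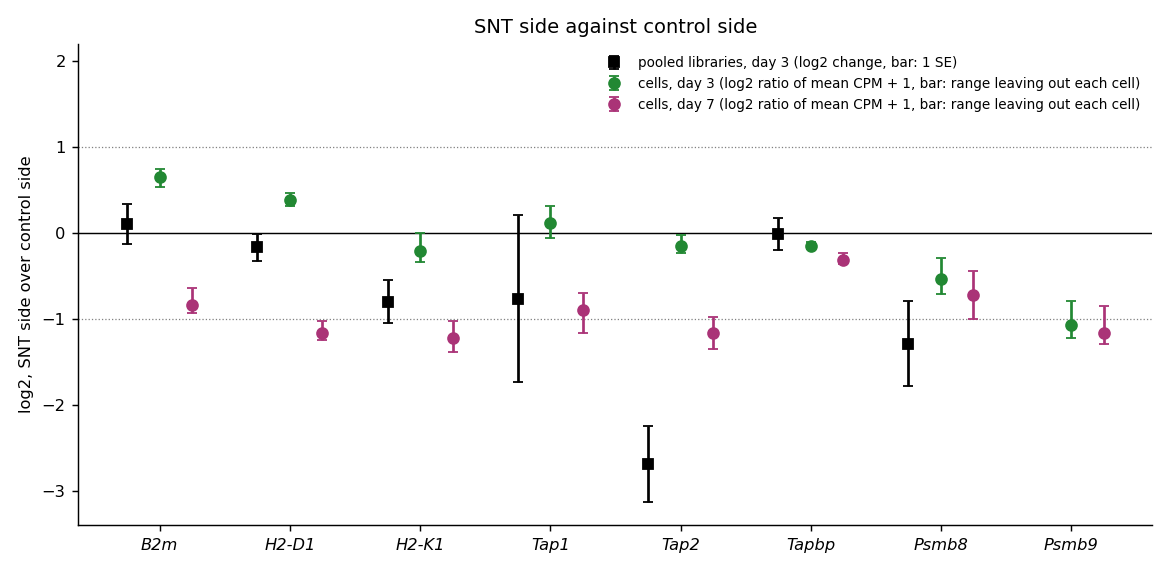
The vertical axis is the log2 difference of the SNT side from the control side for each gene, in the pools (black squares, bar 1 SE), the cells of day 3 (green) and the cells of day 7 (purple), where bars give the range on leaving out each cell in turn. Tap2 stands at -2.69 in the pools and -0.15 in the cells of day 3, and all 8 genes lie below 0 at day 7.

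The third comparison set the cells of day 7 side by side. All 8 genes were lower on average on the SNT side, and 4 of them (H2-K1, Tap2, Psmb9 and H2-D1) were past 2-fold, where 3.491% of 13320 genes were lower and 6.374% higher past 2-fold. The median log2 ratio over the 8 genes was -1.03, beside -0.03 over all genes. The mean of each of the 8 genes was lower on the SNT side in female cells alone and in male cells alone. Past 2-fold were 1 of them in female cells and 6 in male cells. Over all 13320 genes, 1054 were lower and 1098 higher past 2-fold in female cells, and 551 and 997 in male cells. With a pseudocount of 10 the count of 4 became 1, where 139 of all genes were lower and 232 higher past 2-fold. By medians over cells 6 of the 8 were past 2-fold and by the mean of log2(CPM + 1) 5, where the balance over all genes turned, to 564 higher and 1467 lower by medians and to 448 and 887 by the mean of logs.

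H2-D1 was at 78.6, 190.4 and 472 CPM (lowest, median and highest) in 14 control cells and at 24.1, 79.8 and 287 CPM in 33 SNT cells. The ranges overlapped, but 16 of 33 SNT cells lay below every control cell and 29 of 33 below the control median. The mean was 221 ± 125 against 98.3 ± 63.9 CPM (SD over cells), a log2 ratio of -1.16. In the 7 female control cells the mean was 172 ± 65.2 CPM, beside 101 ± 79.3 CPM in 16 female SNT cells, and in male cells it was 270 ± 155 (7 cells) and 96.1 ± 47.5 CPM (17 cells).

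H2-K1 was at 0, 26.9 and 103 CPM in control cells and at 0, 0 and 70.0 CPM in SNT cells, a log2 ratio of -1.23 between the means. It was at 0 in 3 of 14 control cells (21.4%, exact binomial 95% interval 4.66 to 50.8) and in 17 of 33 SNT cells (51.5%, interval 33.5 to 69.2). Cells with H2-K1 above 0 averaged 47.4 CPM on the control side and 31.6 CPM on the SNT side. By sex, H2-K1 was at 0 in 3 of 7 female and 0 of 7 male control cells, and in 12 of 16 female and 5 of 17 male SNT cells. A count of 0 allows up to 3 counts, which is 3.108 CPM in the deepest and 11.5 CPM in the shallowest SNT cell. Every cell with H2-K1 at 0 held H2-D1. The sum of H2-D1, H2-K1, H2-L and the H2-Q genes was 266 ± 148 CPM in control cells and 125 ± 78.4 CPM in SNT cells, a log2 ratio of -1.08.

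B2m was at 48.1, 151 and 459 CPM in control cells and at 4.03, 84.8 and 313 CPM in SNT cells. For B2m, 10 of 33 SNT cells lay below every control cell and 0 above, with a log2 ratio of -0.83. B2m followed H2-D1 in its direction at both days. Tapbp differed least, with means of 112 ± 42.9 and 90.2 ± 40.1 CPM and a log2 ratio of -0.31. For each of the 8 genes the difference of the means at day 7 was smaller than the SD over the control cells.

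Tap2 was at 0, 14.7 and 43.8 CPM in control cells and at 0, 2.49 and 35.7 CPM in SNT cells, a log2 ratio of -1.17. At 200000 counts per cell it was seen in 11 of 14 control cells (78.6%, exact binomial 95% interval 49.2 to 95.3) and in 17 of 33 SNT cells (51.5%, interval 33.5 to 69.2). Tap1 averaged 5.33 ± 6.24 and 2.40 ± 4.50 CPM, a log2 ratio of -0.90. Psmb8 averaged 9.45 ± 10.6 and 5.35 ± 10.0 CPM, a log2 ratio of -0.72, and was above 0 in 10 of 14 control cells and 14 of 33 SNT cells. Psmb9 averaged 3.431 ± 4.47 and 0.979 ± 1.798 CPM, close to the level of 1 count, and its log2 ratio of -1.16 became -0.13 when the cells were thinned to 200000 counts. A cell of the control side held a median of 7 of the 8 genes and a cell of the SNT side a median of 5, and at 200000 counts per cell the medians were 6 and 5.

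Some SNT cells held immune transcripts, and values without them were added after the data had been seen. Of the SNT cells, 3 of day 7 and 1 of day 3 held over 100 CPM of macrophage, neutrophil and T and NK cell markers summed (Cxcr2, present in every group, was not counted). Without them the log2 ratios at day 7 were -1.18 for H2-D1, -1.41 for H2-K1 and -0.88 for B2m, and at day 3 that of B2m was 0.61. The summed glial markers were lower in the SNT cells of day 7 than in the control cells, with medians of 1164 and 4729 CPM. Their means, the measure behind the class I ratios, were closer, at 3354 and 4912 CPM. Of the 10 glial markers, 0 were past 2-fold in either direction at day 7, and their median log2 ratio was -0.19. The part of immune and glial transcripts in the class I levels of these cells was not tested.

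The 8 genes were also compared with one another across the cells of each group by Spearman's rho, as a description without a test, since cells share animals, depth and libraries. H2-D1 and H2-K1 moved together in every group, with rho of 0.79 and 0.89 in the control and SNT cells of day 3 and 0.70 and 0.58 in those of day 7 (18, 41, 14 and 33 cells). The part of reads that both genes could share was not tested. B2m and H2-D1 had rho of -0.59 and -0.01 at day 3 and of 0.60 and 0.52 at day 7. Of the 28 pairs among the 8 genes, 14 and 18 were above 0 in the control and SNT cells of day 3, with medians of 0.01 and 0.11. At day 7, 24 and 28 pairs were above 0, with medians of 0.54 and 0.50.

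**Figure D3:**
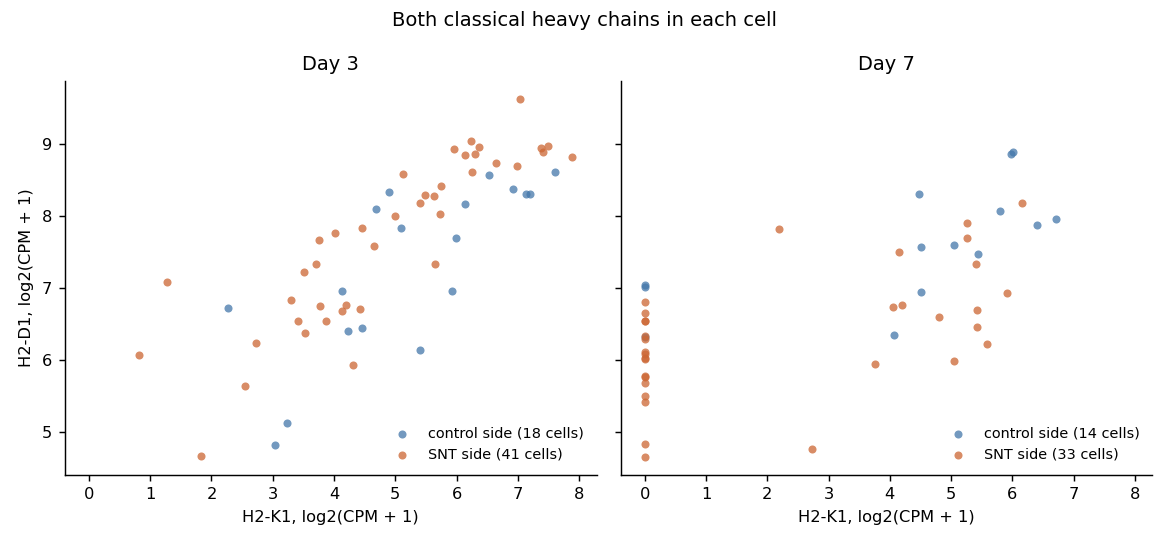
Each point is a cell, with H2-K1 on the horizontal and H2-D1 on the vertical axis, both as log2(CPM + 1), at day 3 (left) and day 7 (right); blue is the control side and orange the SNT side. At day 7 a column of 17 SNT-side and 3 control-side cells stands at 0 for H2-K1 while H2-D1 remains above 0.

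Within the SNT cells, rho with Atf3 was below 0 for most of the 8 genes. At day 3 it was 0.42 for B2m, 0.06 for H2-D1 and -0.05 for H2-K1, and for Psmb8, Tap1, Tapbp, Tap2 and Psmb9 it was -0.53, -0.43, -0.39, -0.28 and -0.23 (41 cells). At day 7 it was 0.00 for B2m and lay between -0.53 (Psmb8) and -0.14 (Psmb9) for the other 7, with -0.27 for H2-D1 and -0.43 for H2-K1 (33 cells). Nefh, the heavy neurofilament of large myelinated neurons, had rho of -0.69 and -0.68 with H2-D1 in the control and SNT cells of day 3 and of -0.08 and -0.31 at day 7. P2rx3, an ATP receptor of small unmyelinated neurons, had rho of 0.56 and 0.55 with H2-D1 at day 3 and of -0.49 and 0.35 at day 7. At day 3 H2-D1 was thus higher in cells with less Nefh and more P2rx3 on both sides, and this order was not kept in the control cells of day 7. Subtype markers themselves differed between the sides and days. P2rx3 averaged 803 and 891 CPM in the control and SNT cells of day 3 and 154 and 79.2 CPM at day 7, and Ntrk3, a receptor of large myelinated neurons, averaged 68.7 and 157 CPM at day 7. The part of neuron subtypes in the class I differences was not tested. Summed glial markers had rho of -0.81 and -0.25 with H2-D1 in the control and SNT cells of day 3 and of 0.50 and 0.29 in those of day 7. With B2m their rho at day 3 was 0.60 and 0.24, opposite in sign to that of H2-D1. At day 7 the rho of summed glial markers was 0.70 and 0.65 with H2-K1 and 0.66 and 0.60 with Psmb8 (control and SNT cells). It was above 0 for all 8 genes on both sides and lowest for Tapbp, at 0.007 and 0.17. The part of glial transcripts in these values was not tested. The genes set against class I in these lines were chosen after values had been seen.

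By a rule that ranked 7957 genes by their mean rho with the score of the 8 genes over the 4 groups of cells, the most alike included Pttg1ip (mean rho 0.58), Shisa5 (0.54), Ptpn13 (0.54) and Cers2 (0.54).

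The other genes of the pathway were taken as lists. By edgeR 8.853% of all genes tested rose and 7.114% fell past both limits in the pools. Of 14 other class I heavy chains tested in the pools (19 listed), 2 rose and 1 fell, with a median log2 change of 0.50 beside 0.02 over all genes. H2-T23 encodes the Qa-1 molecule read by receptors of natural killer cells. It was at 18.1, 18.0 and 10.4 CPM in the control libraries and at 51.2, 46.6 and 121 CPM in the SNT libraries. Its libraries did not overlap, which the rule for naming genes of a list requires. H2-T23 rose by 2.39 on the log2 scale, with an SE of 0.35 and an adjusted p of 9.0e-07 by edgeR, while H2-K1 was lower. Without SNT library 3 the log2 change of H2-T23 was 1.79. In the cells H2-T23 averaged 39.5 and 95.7 CPM at day 3 and 24.3 and 42.9 CPM at day 7 (control and SNT side), log2 ratios of 1.26 and 0.79. Cd1d1, which presents lipids, also rose, from at most 1.77 CPM in the control libraries to 6.09 to 13.5 CPM in the SNT libraries. H2-L, which passed both limits downward, was above 0 in 1 of 3 control libraries only and did not pass by DESeq2 or limma. The part of reads that it could share with H2-D1 was not tested. H2-L averaged 4.96 and 3.79 CPM in the F1 cells of day 3 and 0.484 and 0.147 CPM in the C57BL/6 cells of day 7.

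Of 5 helpers of peptide trimming and loading, 1 fell and 0 rose in the pools. This was Erap1, the aminopeptidase that trims peptides in the endoplasmic reticulum, at 12.4, 33.4 and 28.4 CPM in the control libraries and 11.4, 4.35 and 10.5 CPM in the SNT libraries (log2 change -1.28, adjusted p = 0.030 by edgeR). Its adjusted p was 0.076 by DESeq2 and 0.13, 0.19 and 0.094 by edgeR without SNT library 2, control library 2 or control library 3. Of 4 genes of the immunoproteasome and the proteasome activators, 0 passed in either direction by edgeR, DESeq2 or limma, and at an unadjusted p below 0.05 edgeR found 1 lower, DESeq2 0 and limma 3. Of 14 constitutive 20S proteasome subunits, which form the core particle in every cell, 0 passed both limits by edgeR, DESeq2 or limma. At an unadjusted p below 0.05, edgeR and DESeq2 had 8 higher and limma 7, and past the limit on adjusted p alone edgeR and DESeq2 had 7 and limma 3. Of all genes, 14.01% were higher past that limit by edgeR, and 19.31% at an unadjusted p below 0.05. The median log2 change of the 14 subunits was 0.42. In the cells these 14 subunits had a median log2 ratio of 0.20 at day 3, with 13 above 0, and of -0.20 at day 7, with 14 below 0.

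Of 16 transactivators and interferon signalling genes tested (17 listed), 1 rose and 3 fell in the pools, with a median log2 change of -0.41. These counts are to be read against the 8.853% of all genes that rose and the 7.114% that fell past both limits. Irf2, an interferon regulatory factor, was at 34.4, 36.9 and 31.9 CPM in the control libraries and 7.77, 13.1 and 12.5 CPM in the SNT libraries, a log2 change of -1.48. Irf1, an interferon-induced transcription factor, was at 5.50, 25.03 and 12.4 CPM and 3.425, 5.22 and 0.499 CPM, a log2 change of -2.16 (adjusted p = 0.018 by edgeR), with the sides barely apart. Without SNT library 3 or control library 2 the log2 change of Irf1 was -1.57 or -1.42. Its adjusted p was then 0.10 or 0.27 by edgeR. Jak1, a kinase of the interferon receptors, rose from 381, 415 and 346 CPM to 717, 722 and 646 CPM, a log2 change of 1.02, which lies just past the limit on size. It was 0.86 under library size scaling, 0.87 by limma, 0.99 with a minimum of 10 CPM and 0.96 without control library 3. In the cells Jak1 had log2 ratios of 1.06 and 0.88 at days 3 and 7 and Irf2 of -1.13 and -0.26. Nlrc5, the transactivator of class I genes, was at 0 in all 6 pooled libraries and averaged at most 3.84 CPM in the cells.

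Of 25 interferon-stimulated genes tested (28 listed), 2 rose (Irgm1 and Oas1a) and 3 fell (Ifit1, Ifit2 and Ifih1) in the pools, with a median log2 change of -0.03. By DESeq2, 0 rose and 1 fell. By edgeR 8.853% of all genes rose and 7.114% fell past both limits, and the counts of this list are to be read against that. The call of Ifit2 held in 15 of 15 other settings, while those of Ifit1, Ifih1, Irgm1 and Oas1a held in 6, 7, 8 and 6 of the 14 that kept them. Ifit2 was at 46.8, 34.6 and 65.7 CPM in the control libraries and 8.37, 12.2 and 10.5 CPM in the SNT libraries, a log2 change of -2.07, while in the cells its log2 ratios were 0.28 at day 3 and -0.22 at day 7. Ifit1 averaged 8.67 and 1.51 CPM, a log2 change of -2.31, and Irgm1 averaged 2.57 and 10.2 CPM, a log2 change of 2.04. Oas1a was at 0 in the control pool and at least 2.49-fold higher in the SNT pool, against a floor of 3 counts over the 3 control libraries. In the cells the median log2 ratio of this list was 0.24 at day 3 and -0.22 at day 7.

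**Figure D4:**
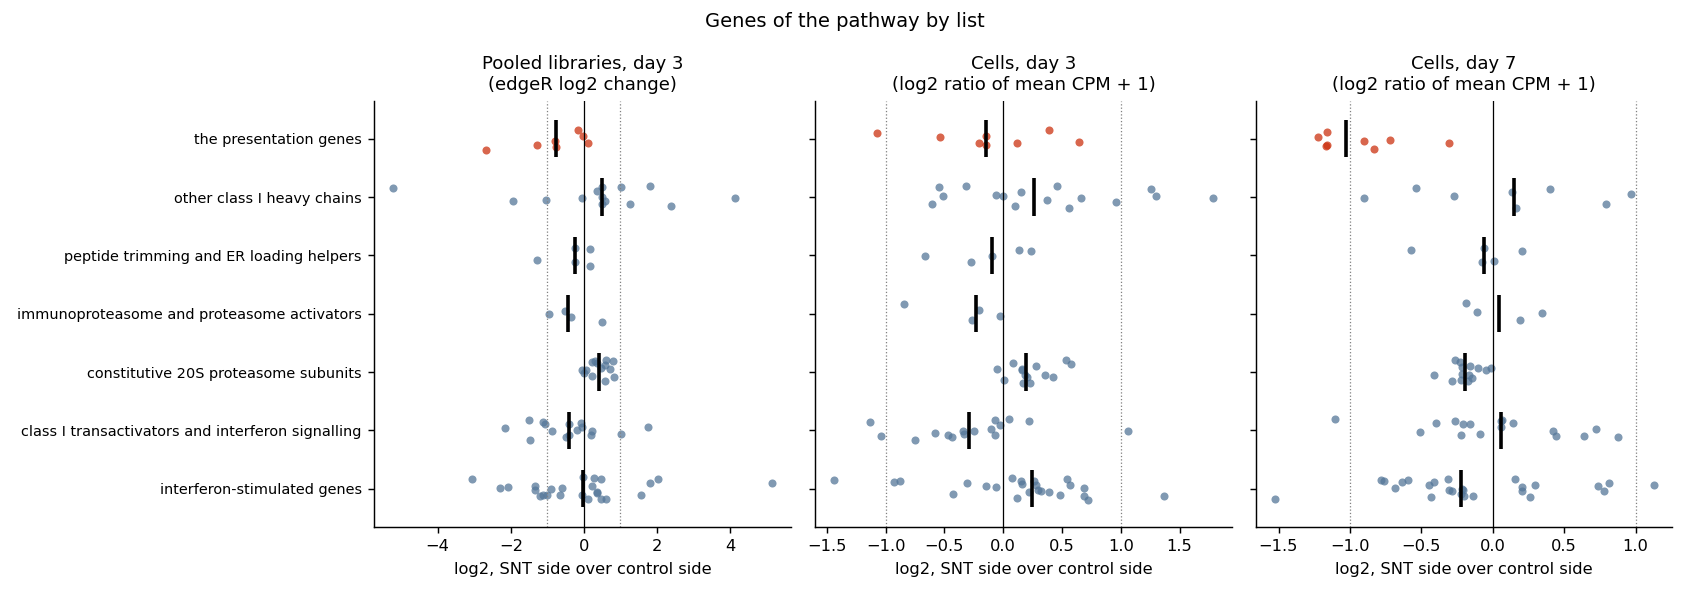
Each point is a gene, placed by its log2 difference of the SNT side from the control side in the pools, the cells of day 3 and the cells of day 7; black bars are list medians, dotted lines mark 2-fold, and the 3 panels have their own horizontal scales. The presentation genes (red) have medians of -0.77 over the 7 tested in the pools (-0.45 over all 8 with no filter) and of -0.15 and -1.03 over the 8 in the cells, and 20S proteasome subunits of 0.42, 0.20 and -0.20.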

How the data were processed

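Smart-seq2 libraries of 117 hand-picked single cells and 6 libraries of pooled neurons were analysed. Per the labels, CASAVA 1.8.2 made the reads (50 bases single-end at day 3, 75 bases paired-end at day 7), and Bowtie2 and RSEM are named with the mouse build mm9. The authors deposited 2 tables named for TPM, but the values are estimated counts (RSEM expected counts): the totals of the libraries lie between 223967 and 2003817, and whole numbers make up 60.7% (lowest library) to 93.6% (highest) of the values above 0, with no tolerance. They were rounded to whole numbers for the count tests and scaled to a library sum of 1000000 (CPM) elsewhere. The 11 cells that the authors dropped as outliers from their filtered table were left out of the main values, and 0 value columns were unused.

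For the pools, edgeR 4.0.16 (R 4.3.3) fitted the 13509 genes that averaged 1 CPM or more, with TMM scaling and the quasi-likelihood test. A call needed a change over 2-fold and p below 0.05 after Benjamini-Hochberg adjustment. The SE was derived from the change and its F statistic. The fit was first tested on simulated data. Cells were compared by the log2 ratio of mean CPM + 1, with exact Clopper-Pearson intervals at 95% and, for shares, thinning to 200000 counts (numpy 2.4.6, pandas 2.3.3, scipy 1.17.1). Alternatives used DESeq2 1.42.0, limma 3.58.1, other scalings, filters, prior counts and pseudocounts, thinning, and leaving out each library or cell. The 3 libraries of a pool are parts of 1 lysate, so p-values measure technical spread.

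The genes and lists were chosen with earlier results of these data known. Of each list, the text names up to 4 called genes with the largest change whose libraries did not overlap between the sides, and further genes only as chosen after their values were seen, among them H2-L, Nlrc5, Atf3, Nefh, P2rx3 and Ntrk3. Results for some genes that this rule names are not reported here.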

Additional observations from a re-analysis of the deposited data

Results flagged for a closer look

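The cells left out as outliers at day 3 lie outside the comparisons and held more B2m than the kept cells of the same side and day. B2m averaged 448 CPM in the 4 left-out control cells and 773 CPM in the 7 left-out SNT cells, and each of them was above the highest kept cell of its side, at 125.0 and 390.4 CPM. These cells held 38771 to 97600 CPM of summed satellite glial and Schwann cell markers and at most 6551 CPM of summed sensory neuron markers. The part of the glial transcripts in their B2m level was not tested.

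The log2 ratio of SNT to control cells pointed one way at day 3 and the other at day 7 for 3 of the 8 genes, so that day 7 minus day 3 came to -1.48 for B2m, -1.55 for H2-D1 and -1.02 for Tap1. The difference between the days was not tested, since no label names an animal and each side and day was treated as 1 sample. The cells of each side at day 7 came from mice of both sexes. The days also differ in strain, sex and read length. For Tap1 the ratio at day 3 itself ran from -0.06 to 0.31 when each cell was left out in turn, and it was -0.52 by medians and -0.30 by the mean of log2(CPM + 1), the direction of day 7.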

How the results depend on the processing

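In the pools, the count of all genes called was 2157 and ran from 1649 to 2244 over the other settings, and from 1879 to 2150 on leaving out a library. Of the 8 genes, 1 was called (Tap2) and 2 (Tap2 and Psmb8) under RLE size factors, library size alone, a mean of at least 10 CPM, limma, thinning to the smallest total and without control library 1, so that leaving out a library gave 1 to 2. Tap2 passed in every setting run. The median of all genes moved from 0.02 to -0.14 on the log2 scale under library size alone, and the 8 genes are to be read against it there. The sign of B2m turned, from 0.10 to -0.056 under library size alone, -0.041 by limma, -0.22 after thinning, and -0.019 to 0.27 on leaving out a library. That of Tapbp turned from -0.01 to 7.5e-05 with no filter and ran from -0.051 to 0.043 on leaving out a library. The cause was not tested. With the replicate block, 2009 genes and 1 of the 8 were called, with Tap2 at -2.72 (adjusted p = 3.5e-07 by edgeR), and the interferon-stimulated genes called went from 5 to 1. The library numbers share only a number: same-numbered libraries of the 2 sides deviated with correlations of 0.0593, -0.0164 and -0.0069.

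In the cells of day 3, the count of the 8 genes past 2-fold went from 1 to 0 with a pseudocount of 10, with the outlier cells included, and on leaving out single cells (0 to 1). At day 7 the count of 4 became 1 with a pseudocount of 10 and 1 within female cells, beside 6 within male cells. Over all genes, 139, 1054 and 551 were lower past 2-fold in these settings in that order, beside 465 in the main setting. On leaving out a cell the count of 4 ran from 3 to 6. Depth limits Tap1, Tap2, Psmb8 and Psmb9, which rest on few counts per library.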

Other observations

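Among the cells left out as outliers at day 3, 7 of the 8 genes, all but H2-D1, averaged higher than in the kept cells. This held for left-out control cells as well as for left-out SNT cells. The share of all genes higher in the left-out cells is not given, so this is a description only. In the left-out control cells Tap2 averaged 14.1 CPM and Psmb9 6.24 CPM, beside 12.1 and 4.01 CPM in the kept control cells. Tap2 averaged 74.5 CPM in the 7 left-out SNT cells, and Psmb9 averaged 16.1 CPM there beside 1.38 CPM in the 41 kept SNT cells. With the outlier cells included, the log2 ratio of Tap2 at day 3 was 0.65, beside -0.15 without them. H2-D1 averaged 254 CPM in the left-out SNT cells and 268 CPM in the kept ones.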
